A study of Mus musculus with 16 samples.

Results

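Replication-dependent histone mRNAs encode the bulk histones that package newly copied DNA. They were taken as every gene whose name on the array began with Hist1h, Hist2h, Hist3h or Hist4h, which gave 49 of 30214 gene names and 57 probes. Of these, 47 genes had a probe that stood well above background on 2 or more arrays of some group, and these were measured, and 41 were well above background on all 16 arrays. By class, 6 genes encoded the linker histone H1, 14 encoded H2A, 10 of 12 measured genes encoded H2B, 8 encoded H3 and 9 encoded H4. Hist1h2bq and Hist3h2bb-ps were not measured.

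The cells were AML12, a non-tumour mouse hepatocyte line. All 16 samples received doxycycline, which switches on the lentiviral shRNA, and insulin for 1 h at a dose of 100, given as nM in one label and as mM in another. Treatment scramble+doxy+ins expressed a control hairpin, and treatment shrna+doxy+ins expressed a hairpin against eIF6, a ribosome anti-association factor. Cell lysates were separated on sucrose gradients into subpolysomes (light fractions) and polysomes (heavy fractions, where mRNAs carry several ribosomes). Each of the 4 groups (scramble subpolysomes, scramble polysomes, eIF6 shRNA subpolysomes and eIF6 shRNA polysomes) held 4 biological replicates on one-colour arrays, and each of the 4 slides carried 1 array of every group. Unfractionated RNA was not analysed here, so a change in a fraction does not give the change in total histone mRNA. In such bulk samples, fewer cells in S phase and less histone RNA per cell cannot be told apart.

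Most histone genes lie in clusters and are transcribed when DNA is replicated. Their mRNAs mostly lack a poly(A) tail. In its place, the 3′ end carries a conserved stem-loop, and the stem-loop binding protein (Slbp) bound there supports processing, nuclear export, translation and decay. Cleavage falls a few bases after the stem-loop, and longer polyadenylated transcripts of some histone genes are known. The labelling kit starts cDNA from an oligo(dT) primer, so the values are those of histone transcripts as this kit sees them, and the share from polyadenylated or uncleaved forms was not measured.

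Sequences of 6 histone probes hold the stem-loop, searched for on the probe strand as a 6-base stem that begins with GG, a 4-base loop that begins with T, and the reverse complement of the stem. In all, 13 of 39429 probes on the array held it (0.033%). The excerpts below are shown because they place these probes at the 3′ end that marks this mRNA family. They are 5′ to 3′ on the transcript strand as the array files give them, with stem and loop in capitals. On mm9 the 60-base probes lie at chr3:96043669-96043728 (Hist2h2aa2, minus strand), chr3:96074056-96074115 (Hist2h2bb, plus), chr13:23853756-23853815 (Hist1h3a, minus), chr13:23627719-23627778 (Hist1h3g, plus), chr13:21874784-21874843 (Hist1h3i, minus) and chr13:21903960-21904019 (Hist1h4m, plus).
Hist2h2aa2: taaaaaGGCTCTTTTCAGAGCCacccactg
Hist2h2bb: acccaaaaGGCTCTTTTCAGAGCCacttta
Hist1h3a: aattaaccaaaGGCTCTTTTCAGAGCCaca
Hist1h3g: cactttaaaGGCTCTTCTTAGAGCCaccca
Hist1h3i: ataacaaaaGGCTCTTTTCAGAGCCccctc
Hist1h4m: caactaaaGGCCCTTTTCAGGGCCatccaa
Hist2h2aa2, Hist2h2bb, Hist1h3a and Hist1h3i shared stem and loop, Hist1h3g differed in the loop and Hist1h4m in the stem. The Hist2h2aa2 probe went on for 38 bases after the stem-loop, and the other 5 probes ended 3 to 6 bases after it.

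The probes of 3 H2A genes are shown for another reason, which is that H2A genes are close copies of each other. On mm9 they lie at chr13:23626113-23626172 (Hist1h2af, plus strand), chr13:22127035-22127094 (Hist1h2ah, minus) and chr3:96024378-96024437 (Hist2h2ac, minus), and all end at the stop codon. A run of 39 bases, in capitals, was identical in all 3.
Hist1h2af: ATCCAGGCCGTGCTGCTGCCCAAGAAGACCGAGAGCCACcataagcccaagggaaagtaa
Hist1h2ah: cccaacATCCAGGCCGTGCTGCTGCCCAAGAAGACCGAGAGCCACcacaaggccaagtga
Hist2h2ac: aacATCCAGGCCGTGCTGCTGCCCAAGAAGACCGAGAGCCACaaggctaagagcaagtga
In all, 16 of 57 histone probes shared a run of at least 20 bases with a probe of another histone gene, so signals of these genes may be partly shared and they are uncertain as single genes.

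Values are log2 signals after quantile normalization over all 16 arrays, and a log2 difference of 1 is a factor of 2. This sets every array to one distribution, so all changes are relative to other mRNAs and are not absolute amounts. Differences between eIF6 shRNA and scramble were tested for every gene with limma and Benjamini-Hochberg adjustment over 19365 genes. They were the change in polysomes, the change in subpolysomes, and the change in translational efficiency, which is the polysomal minus the subpolysomal change. Eif6, the targeted gene, fell on polysomes from 12.95 ± 0.01 to 11.89 ± 0.08 (SD, n = 4, adjusted p = 1.45e-07 by limma), and its subpolysomal change was 0.02 (adjusted p = 0.917 by limma). Between 20177 and 24953 probes were well above background per array, and no spot was saturated. Of 9 hepatocyte markers, Trf, Hnf4a, Krt8, Krt18, Ttr, Afp and Apoe were well above background on all 16 arrays, whereas Alb was on 7 and Apoa1 on 2.

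In subpolysomes, histone mRNAs were lower with eIF6 shRNA in all 5 classes. Of 47 histone genes, 34 fell and 0 rose (limma, and 1 rose at an unadjusted p under 0.05). Over all genes, 12.3% were called lower and 11.8% higher. Among the 41 histone genes well above background on every array, 30 were called lower. The median histone change was -0.69, beside 0.02 for all genes, and 44 histone genes were below 0. By class, H1 fell in 4 of 6 genes (median -0.63), H2A in 10 of 14 (median -0.47), H2B in 7 of 10 (median -0.78), H3 in 6 of 8 (median -0.69) and H4 in 7 of 9 (median -0.75). In 40 genes all 4 eIF6 shRNA arrays lay below all 4 scramble arrays, which was so for 15.9% of all genes. For each of them the two-sided exact permutation test gave p = 0.0286, the smallest that 4 against 4 arrays allow. Full separation of the groups always gives this value, so the test adds no separate evidence for these genes.

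**Figure D1:**
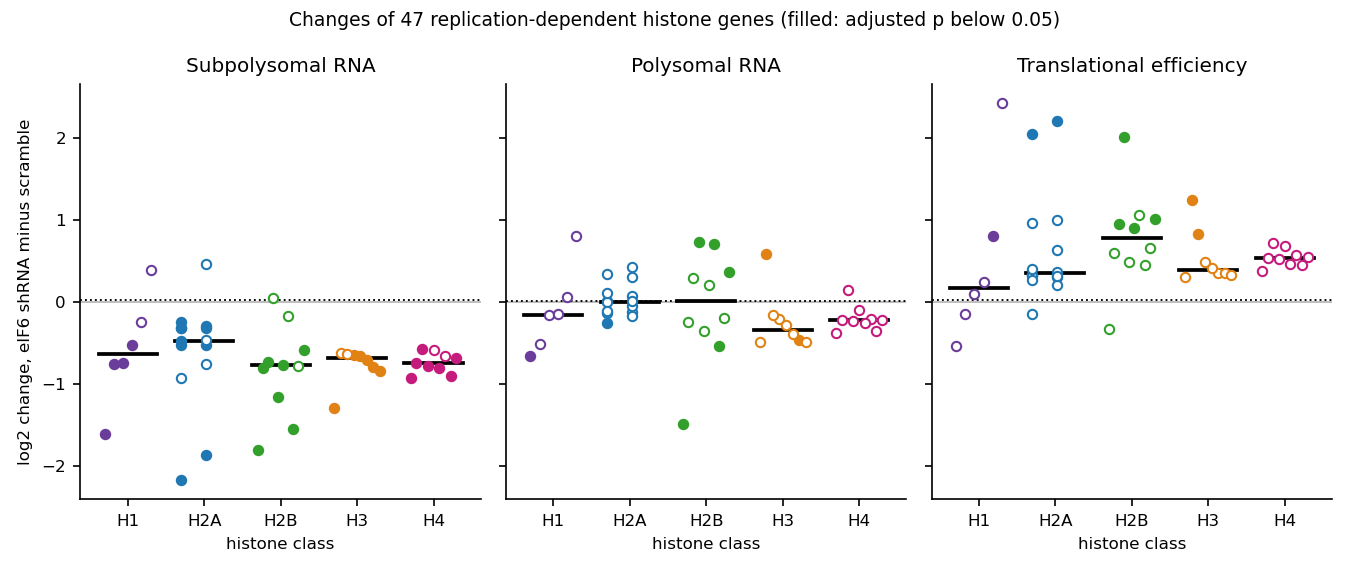
Each point is 1 histone gene, placed by class (x axis) and by its log2 change between eIF6 shRNA and scramble (y axis) in subpolysomes, polysomes and translational efficiency. Filled points passed an adjusted p of 0.05 (limma), black bars are class medians and the dotted line is the median of all genes. In subpolysomes 44 of 47 points lie below 0, and in translational efficiency 43 lie above 0. With spike-in scaling, which lowered all genes as well, the H1 median in translational efficiency turned from 0.17 to -0.07. Relative to all genes it then lay at 0.14.

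The fall in subpolysomes was seen on each slide. Within slides, the histone median was -0.63, -0.61, -0.89 and -0.72, with 43 to 45 of 47 genes below 0. Calls depended on the number of arrays and on the scaling. Without replicate 1, 2 or 3 there were 14, 19 and 20 histone genes called lower, and without replicate 4 there were 36. Scaling to the 75th percentile left 20 and scaling to 7 spike-in probes left 5, with medians of -0.62 and -0.90 (all genes 0.05 and -0.23).

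On polysomes, the histone genes went different ways. Of 47, 5 fell (all genes 10.7% lower) and 4 rose (all genes 11.1% higher). These shares, 10.6% and 8.51%, were close to those of all genes. The median was -0.16, beside 0.02 for all genes. Groups did not overlap in 4 genes below and 3 above, where 11.4% and 11.1% of all genes did so. Replicate 4 was lowest in both polysomal groups, and its scramble array weighed on this comparison. After each gene was centred on its mean over the 16 arrays, the histone median of the scramble polysomal arrays was -0.21, 0.07, 0.23 and, in replicate 4, -0.70. The corresponding eIF6 shRNA values were -0.14, -0.29, -0.06 and -0.45, within the scramble range. Without the replicate 4 scramble array alone, 14 histone genes were called lower and 3 higher, with a median of -0.40. This kept the low replicate 4 array of eIF6 shRNA, so the arms were unbalanced. Without all arrays of replicate 1, 2 or 3 only 2 were called lower. Within slides the polysomal median was -0.49, -0.35, 0.27 and -0.14.

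**Figure D2:**
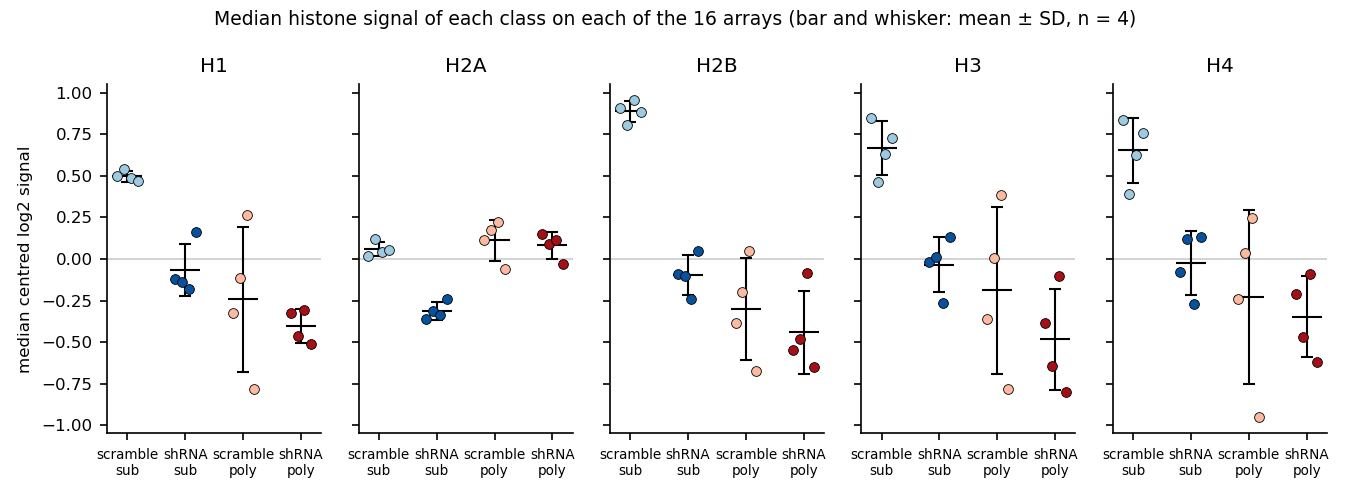
Points are the 4 arrays of each group, and the y axis is the median over the genes of a class of log2 signal centred on the mean of each gene over the 16 arrays. Bars and whiskers are mean ± SD (n = 4). In subpolysomes (sub) the scramble and eIF6 shRNA arrays do not overlap in any class, whereas on polysomes (poly) they do in all 5.

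Translational efficiency of histone mRNAs was higher with eIF6 shRNA for 9 of 47 genes and lower for 0 (limma, also 0 at an unadjusted p under 0.05). Over all genes, 0.403% were called higher and 1.11% lower. After quantile normalization this is a change relative to other mRNAs, and absolute ribosome loading was not measured. The median was 0.48, beside 0.02 for all genes, and 43 histone genes were above 0. H2B had 4 of 10 genes called (median 0.78), H2A 2 of 14 (0.35), H3 2 of 8 (0.39) and H1 1 of 6 (0.17). No H4 gene was called (2 at an unadjusted p under 0.05, limma), though all 9 were above 0, between 0.37 and 0.72. Every called gene except Hist1h3g was measured with 1 probe, which started after base 500 of its transcript. The Hist1h4i probe at base 575 was called when fitted on its own (1.05, adjusted p = 0.0125 over all probes, limma). The part of probe place in these class differences was not tested. Among the 41 genes well above background on every array, 7 were called. Without replicate 1, 2, 3 or 4 the number of calls was 2, 4, 1 and 13, and it was 0 with spike-in scaling, where the median was 0.24 and that of all genes -0.22. Within slides the median was 0.24, 0.33, 1.19 and 0.46, the highest on the slide whose polysomal median was also highest.

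Linker histones, which bind the DNA between nucleosomes, were measured with 1 probe each. Hist1h1c in subpolysomes was 12.12, 12.02, 12.04 and 12.01 in scramble and 11.38, 11.19, 11.25 and 11.40 in eIF6 shRNA. On polysomes it was 10.80, 10.80, 11.03 and 10.49 against 10.87, 10.86, 10.85 and 10.77. The fractions differed in pattern, with separate groups in subpolysomes and overlapping ones on polysomes. Its subpolysomal change was -0.74 ± 0.10 (SE, adjusted p = 6.1e-05, limma) and its translational efficiency rose by 0.80 ± 0.14 (adjusted p = 0.00797, limma).

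Hist1h1b fell in both fractions. On polysomes it was 14.05, 14.20, 13.89 and 13.57 in scramble and 13.33, 13.11, 13.15 and 13.45 in eIF6 shRNA, with no overlap (-0.67 ± 0.17, adjusted p = 0.0115, limma). In subpolysomes it was 13.82, 13.86, 13.70 and 13.04 against 13.25, 13.08, 12.95 and 13.05, where the lowest scramble array lay within the eIF6 shRNA range (-0.52 ± 0.17, adjusted p = 0.0407, limma). It was the only gene called lower in subpolysomes whose groups overlapped. Hist1h1t, the testis form of H1, changed by 0.38 in subpolysomes (adjusted p = 0.322, limma) and by -0.54 in translational efficiency (adjusted p = 0.615, limma), the lowest value of any histone gene there. Hist1h1d was well above background on 2 scramble subpolysomal arrays and on no other array. It was thus kept only through the group where it was high, so a lower value in the other groups was favoured in advance. With that limit, it was at least 1.16-fold lower in eIF6 shRNA subpolysomes, measured against the weakest signals counted as above background. Its other changes were not resolved.

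H2A forms the nucleosome core as a dimer with H2B. Its genes fell into bright and dim ones. The 6 genes Hist1h2af, Hist1h2ag, Hist1h2ah, Hist1h2ak, Hist1h2an and Hist2h2ac lay at or above percentile 99.1 of signal among all genes tested. Their subpolysomal changes ran from -0.53 to -0.25, and all 6 were called lower. Hist1h2ak was 17.49, 17.42, 17.50 and 17.52 in scramble subpolysomes and 16.87, 16.97, 16.93 and 17.04 in eIF6 shRNA, well apart. On polysomes its change was -0.26 ± 0.09 (adjusted p = 0.0488, limma), the only H2A gene called there, but 11 of 17 alternative settings did not call it and its 2 probes disagreed. The probe at base 1 changed by -0.51 (adjusted p = 0.0167 over all probes, limma) and the one at base 334 by -0.01 (adjusted p = 0.923). Translational efficiency changes of these 6 ran from 0.20 to 0.37, with none called. The brightest of them held the top ranks, where quantile normalization gives every array the same few values. On polysomes Hist1h2ah was 18.81, 18.90, 18.81 and 18.84 in scramble and 18.84, 18.81, 18.84 and 18.84 in eIF6 shRNA. Changes there may be held small by this scaling, which was not tested.

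Hist1h2ac and Hist1h2ae showed the largest falls in subpolysomes among H2A genes, but each was lost in 1 group. Hist1h2ac in subpolysomes was 6.99, 6.97, 7.09 and 6.36 in scramble and 5.00, 4.22, 4.52 and 4.96 in eIF6 shRNA (-2.18 ± 0.24, adjusted p = 9.58e-06, limma). On polysomes it was well above background on 2 scramble arrays and on 0 eIF6 shRNA arrays, so with eIF6 shRNA its polysomal signal was at least 3.18-fold lower than the subpolysomal one. Hist1h2ae was 5.17, 4.66, 4.77 and 4.92 in scramble subpolysomes and well above background on 0 of 4 eIF6 shRNA arrays, at least 2.65-fold lower (measured change -1.87 ± 0.22, adjusted p = 2.09e-05, limma). Their translational efficiency changes of 2.04 and 2.20 were called (adjusted p = 0.00568 and 0.00168, limma) but rest on a group near background and are not resolved as sizes. Hist3h2a changed by -0.53 in subpolysomes (adjusted p = 0.026, limma), 0.43 on polysomes (adjusted p = 0.0755) and 0.96 in translational efficiency (adjusted p = 0.0531). Hist1h2al, a predicted gene close to background, changed by 0.46 in subpolysomes (adjusted p = 0.126, limma), the highest value of a histone gene in that fraction.

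H2B had the most calls in translational efficiency. Hist3h2ba in subpolysomes was 6.31, 6.36, 6.98 and 6.63 in scramble and 4.44, 4.74, 4.70 and 5.16 in eIF6 shRNA. On polysomes it was 5.39, 5.72, 6.0 and 4.91 against 5.64, 5.88, 5.74 and 5.59. Its polysomal groups overlapped and its subpolysomal groups lay apart by more than their own ranges. The subpolysomal change was -1.81 ± 0.22 (adjusted p = 2.3e-05, limma).

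Hist1h2be and Hist2h2be differed from it on polysomes, where both rose. Hist1h2be was 4.72, 4.92, 5.08 and 4.86 on scramble polysomes and 5.79, 5.69, 5.59 and 5.43 on eIF6 shRNA polysomes (0.73 ± 0.12, adjusted p = 0.000276, limma), with overlapping subpolysomal groups (-0.17, adjusted p = 0.33). Hist2h2be was 8.51, 8.10, 8.33 and 8.54 in scramble subpolysomes against 7.77, 7.82, 7.77 and 7.76 (-0.59 ± 0.11, adjusted p = 0.00137, limma). On polysomes it was 7.40, 7.42, 7.22 and 7.16 against 7.75, 7.82, 7.67 and 7.40, which overlapped at the edge (0.36 ± 0.11, adjusted p = 0.0324, limma). That small rise turned to -0.09 with spike-in scaling, which also lowered the polysomal median of all genes. Their translational efficiency changes were 0.90 ± 0.16 and 0.95 ± 0.16 (adjusted p = 0.0111 and 0.00641, limma).

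Hist1h2bg fell in both fractions. It went from 7.73, 7.91, 8.17 and 7.93 to 6.34, 6.20, 6.26 and 6.72 in subpolysomes (-1.56 ± 0.14, adjusted p = 1.09e-06, limma). On polysomes it went from 6.21, 6.38, 6.42 and 6.22 to 5.55, 5.92, 5.99 and 5.60 (-0.54 ± 0.14, adjusted p = 0.00885, limma). The larger subpolysomal fall left a translational efficiency change of 1.01 ± 0.19 (adjusted p = 0.0139, limma). Hist1h2bc rose on polysomes by 0.71 ± 0.14 (adjusted p = 0.00174, limma), from 11.50, 11.55, 11.74 and 11.01 to 12.29, 12.09, 12.31 and 11.93, and changed by 0.05 in subpolysomes (adjusted p = 0.846). Hist2h2bb fell most on polysomes, by 1.49 ± 0.15 (adjusted p = 2.68e-06, limma), but its 2 probes disagreed. The stem-loop probe changed by -0.55 (adjusted p = 0.109 over all probes, limma), and a probe at base 1341 of another transcript, well above background on 7 of 16 arrays, by -2.43 (adjusted p = 3.8e-07). The latter averaged 4.59 and 4.74 in scramble subpolysomes and polysomes, and 3.12 and 2.31 with eIF6 shRNA. Such a dim probe can be kept through the groups where it is high, so a fall may have been favoured in advance.

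**Figure D3:**
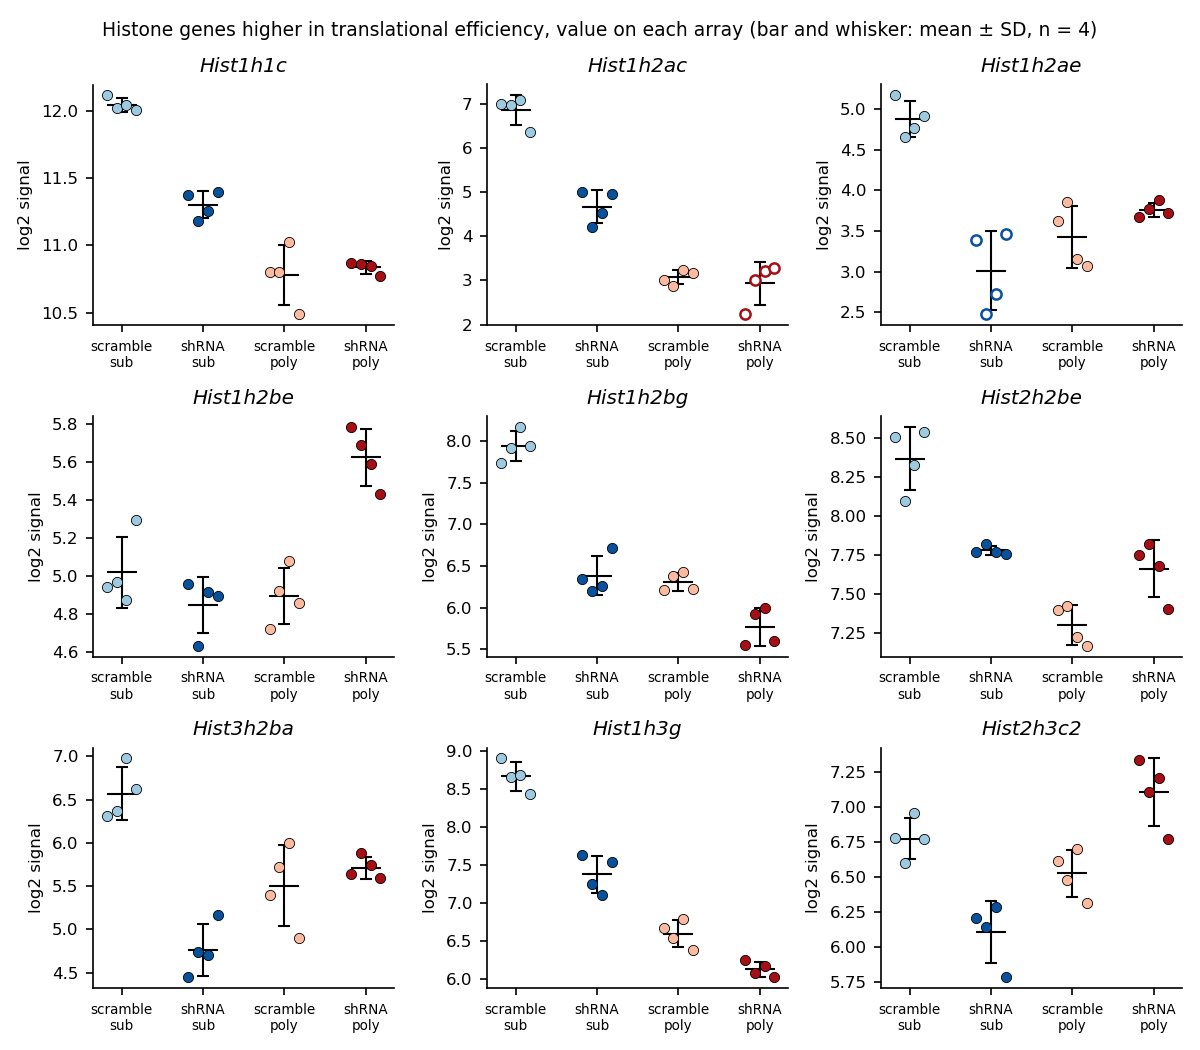
Each panel is a histone gene called higher in translational efficiency, with the log2 signal (y axis, own range per panel) on the 4 arrays of each group and mean ± SD (n = 4). Open circles mark a group in which no array was well above background. Subpolysomal signal is lower with eIF6 shRNA in 8 of the 9 panels by the test, the exception being Hist1h2be.

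H3 and H4 form the central tetramer of the nucleosome. All 8 H3 genes and all 9 H4 genes were below 0 in subpolysomes, in a narrow range apart from Hist1h3g. Hist1h3g went from 8.90, 8.65, 8.68 and 8.43 to 7.62, 7.25, 7.10 and 7.53 in subpolysomes (-1.29 ± 0.13, adjusted p = 4.64e-06, limma). On polysomes it went from 6.67, 6.53, 6.78 and 6.38 to 6.24, 6.07, 6.16 and 6.02 (-0.47 ± 0.13, adjusted p = 0.0177, limma). Neither fraction overlapped, and the translational efficiency change was 0.82 ± 0.19 (adjusted p = 0.0403, limma), not called under 8 of 17 alternatives. Hist2h3c2 moved apart in the fractions. In subpolysomes it went from 6.78, 6.60, 6.96 and 6.77 to 6.21, 6.15, 6.29 and 5.78 (-0.67 ± 0.14, adjusted p = 0.0027, limma), and on polysomes from 6.62, 6.48, 6.70 and 6.31 to 7.34, 7.11, 7.21 and 6.78 (0.58 ± 0.14, adjusted p = 0.00692, limma). It rose most among H3 genes in translational efficiency, by 1.25 ± 0.20 (adjusted p = 0.0043, limma). Hist1h3i, with a stem-loop probe, changed by -0.80 in subpolysomes (adjusted p = 0.016, limma) and by -0.49 on polysomes (adjusted p = 0.136). Hist1h3c had the smallest H3 change in subpolysomes, -0.62 (adjusted p = 0.133, limma).

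Among H4 genes, Hist1h4c changed most in subpolysomes. It went from 13.94, 13.43, 13.69 and 13.92 to 12.75, 12.91, 12.52 and 13.09, without overlap (-0.92 ± 0.25, adjusted p = 0.0143, limma). Hist1h4m followed with -0.90 ± 0.26 (adjusted p = 0.0198, limma). Hist1h4i, with 3 probes, changed by -0.57 ± 0.19 (adjusted p = 0.043, limma), the smallest H4 change in that fraction, and was not called under 9 of 17 alternatives. Its polysomal change of 0.15 (adjusted p = 0.685) was the only H4 value above 0. Hist1h4d, which had the smallest H4 change in translational efficiency (0.37, adjusted p = 0.797, limma), lay between 15.64 and 15.87 in scramble subpolysomes and between 15.06 and 15.38 in eIF6 shRNA. Its polysomal arrays ranged more widely, from 14.74 to 16.43 in scramble and from 15.05 to 16.08 in eIF6 shRNA.

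In scramble cells, histone genes lay lower on polysomes relative to subpolysomes than genes at large. Of 47, 27 were called lower (all genes 28.4%) and 4 higher (all genes 31.7%), with a median of -0.71 beside 0.04. In eIF6 shRNA cells, 15 were called lower (all genes 28.7%) and 14 higher (all genes 32.1%), with a median of -0.12 beside 0.03. Quantile normalization sets both fractions to one distribution, so these values are relative to other mRNAs. With fractions normalized separately or scaled to spike-in probes the scramble median was 0.47 and 0.66, of opposite sign, while all genes were at 1.38 and 1.52, so that histones lay at -0.92 and -0.86 relative to all genes.

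Classes differed here in the values. In scramble cells the medians were -1.24 for H2B, -0.91 for H3, -0.87 for H4, -0.62 for H1 and 0.02 for H2A, and in eIF6 shRNA cells -0.55, -0.50, -0.41, -0.24 and 0.43. H2A had 2 genes called higher in scramble and 9 with eIF6 shRNA. The H2A median thus lay close to that of all genes in scramble (0.04) and above it with eIF6 shRNA (0.03). With 75th percentile scaling it lay at -0.94 and -0.70 relative to all genes, and with the fractions normalized separately at -1.0 and -0.62. Hist2h2aa2 was highest in scramble cells (0.66 ± 0.07, adjusted p = 1.16e-06, limma). Its stem-loop probe, with 38 bases past the stem-loop, stood at 1.08, whereas the other 5 stem-loop probes ran from -2.07 to -0.84. Hist1h2ac was lowest, at -3.78, with 2 of 4 polysomal arrays well above background.

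**Figure D4:**
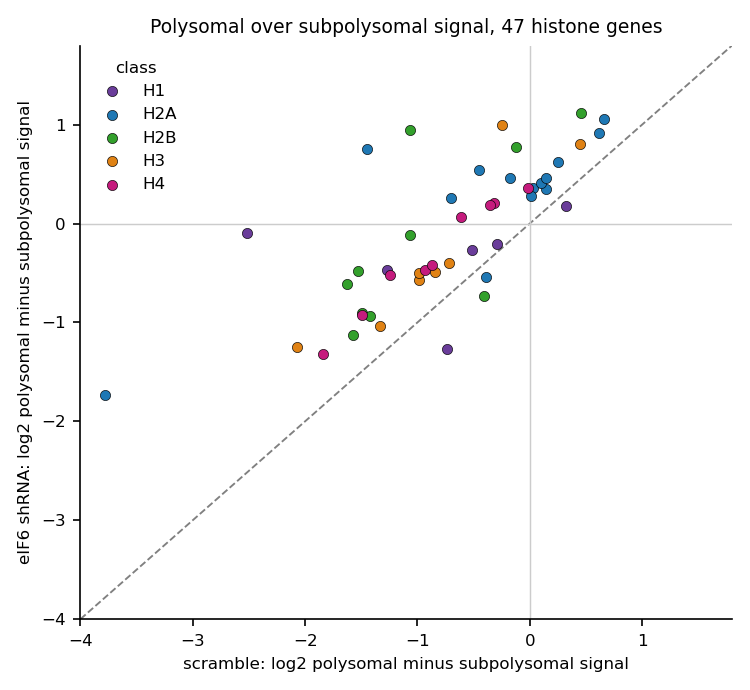
Each point is a histone gene, with log2 polysomal minus subpolysomal signal in scramble (x axis) and eIF6 shRNA cells (y axis), coloured by class. The dashed line marks equal values, and 43 of 47 points lie above it. Zero depends on the scaling of the fractions and not on ribosome loading alone: with spike-in scaling the medians moved from -0.71 to 0.66 in scramble and from -0.12 to 1.06 in eIF6 shRNA.

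Probes differed by where they lay in the transcript. This split, at base 500, was chosen after the values were seen and is a description. Each of 54 kept probes was fitted on its own, with adjustment over 25260 probes. Of 12 core-histone probes whose first base lay after base 500 (GC content 35% to 45%), 8 were called higher in translational efficiency, with a median of 1.03, where 0.333% of all probes were. Of 30 probes starting up to base 500 (GC 38.3% to 70%), 0 were called, with a median of 0.45. Of the 6 stem-loop probes 1 was called (Hist1h3g), with a median of 0.41. In subpolysomes 10 of 12, 18 of 30 and 5 of 6 were called lower, where 11.9% of all probes were. On polysomes 4 of 12 late probes were called higher (all probes 10.8%) and 2 lower (all probes 10.3%), with a median of 0.32, beside medians of -0.18 for early and -0.48 for stem-loop probes. Within one gene, the Hist1h4i probe at base 575 changed by 1.05 in translational efficiency (adjusted p = 0.0125, limma), and those at bases 24 and 484 by 0.58 and 0.52 (adjusted p = 0.705 and 0.339). Hist2h2bb went the other way. Its probe at base 1341, of another transcript, changed by -0.96 and its stem-loop probe at base 434 by 0.31 (adjusted p = 0.129 and 0.784, limma). Late probes were also dimmer, with a median log2 signal of 6.81 in scramble subpolysomes against 15.21 for early ones, and 9 of 12 were well above background on all arrays. The part of GC content and signal in this pattern was not tested.

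**Figure D5:**
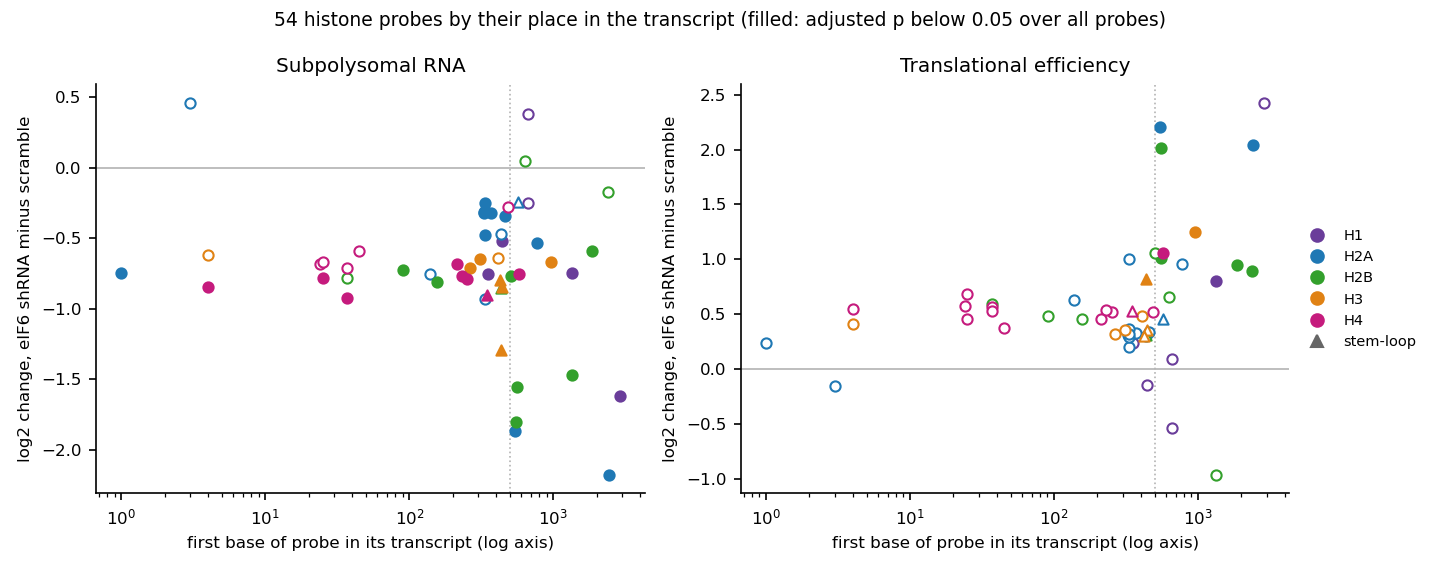
Each point is 1 of 54 histone probes, by its first base in the transcript (log x axis) and its log2 change between eIF6 shRNA and scramble in subpolysomes (left) and translational efficiency (right). Triangles are stem-loop probes, filled points passed an adjusted p of 0.05 over all probes (limma) and the dotted line is base 500. Filled points at right lie beyond base 500 except the stem-loop probe of Hist1h3g.

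Replacement histones, whose genes yield polyadenylated mRNAs outside S phase as well, were compared with them. Of 11 such genes, 4 fell in subpolysomes (36.4%, all genes 12.3%) and 1 rose (9.09%, all genes 11.8%), with a median of -0.31. H2afx, a variant with a role in DNA damage, fell by 0.73 ± 0.15 (adjusted p = 0.00272, limma), and H2afz, H2afj and H3f3b fell by 0.37, 0.33 and 0.31 (adjusted p = 0.0103, 0.0034 and 0.00995), while H2afy rose by 0.25 (adjusted p = 0.0418). On polysomes 3 of 11 were called lower (27.3%, all genes 10.7%). These were H2afx, H2afy2 and H3f3b, which fell by 0.59, 0.81 and 0.33 (adjusted p = 0.0109, 0.000197 and 0.00726, limma). One gene changed in translational efficiency, H2afy2, by -0.87 (adjusted p = 0.0234, limma), and the median was 0.14. Whether the lists differ was not tested.

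Genes that transcribe and process histone mRNA were taken as a further list. Of 14 measured genes, 0 were called on polysomes (all genes 10.7% lower and 11.1% higher). In translational efficiency 0 were called as well (all genes 1.11% lower and 0.403% higher). At an unadjusted p under 0.05 (limma) there were 3 and 1. In subpolysomes 1 was called, Mif4gd, an SLBP-interacting translation factor, at 0.40 (adjusted p = 0.0406, limma). That is 7.14% called higher, beside 11.8% of all genes. Slbp changed by -0.29 on polysomes (adjusted p = 0.0595, limma), -0.07 in subpolysomes (adjusted p = 0.694) and -0.22 in translational efficiency (adjusted p = 0.592). Casp8ap2, also known as FLASH and needed for histone mRNA processing, changed by -0.38 in both fractions (adjusted p = 0.419 and 0.379, limma), and Npat was not measured. Of 8 genes of histone mRNA decay, Papd5 fell in subpolysomes (-0.32, adjusted p = 0.0244), Dis3 fell on polysomes (-0.40, adjusted p = 0.0326) and Zcchc11, a terminal uridylyltransferase, rose there (0.59, adjusted p = 0.0242, limma). Each is 12.5% of the list, close to the shares of all genes (12.3% lower in subpolysomes, 10.7% lower and 11.1% higher on polysomes).

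Histone chaperones, which carry histones to DNA, numbered 11. In subpolysomes Asf1b and Hira fell by 0.38 and 0.43 (adjusted p = 0.0124 and 0.0288, limma) and Nap1l4 rose by 0.33 (adjusted p = 0.0417). These were 18.2% lower and 9.09% higher, beside 12.3% and 11.8% of all genes. On polysomes only Asf1b was called, at -0.70 (adjusted p = 8.66e-05, limma), which is 9.09% lower beside 10.7% of all genes. Of 25 measured genes of DNA replication and S phase, 4 fell in subpolysomes (median -0.09) and 4 on polysomes (median -0.21). That is 16% in each, beside 12.3% and 10.7% of all genes. In both fractions 0 rose, where 11.8% and 11.1% of all genes did, and 20 and 21 of the 25 were below 0. Whether this list differs from all genes was not tested. In translational efficiency 0 changed (limma, 1 at an unadjusted p under 0.05), beside 1.11% lower and 0.403% higher of all genes. Orc6, Gins1 and Ccna2 fell in both fractions, by 0.41, 0.26 and 0.45 in subpolysomes (adjusted p = 0.0183, 0.0328 and 0.00533, limma) and by 0.51, 0.44 and 0.66 on polysomes (adjusted p = 0.00442, 0.00111 and 0.000262). Ccne1, the cyclin of S phase entry, fell by 0.79 in subpolysomes (adjusted p = 0.0465, limma) and Prim1, a primase subunit, by 0.22 on polysomes (adjusted p = 0.0489). For Ccne1, 1 scramble subpolysomal array stood at 10.17 and the others from 8.52 to 9.05, so the size rests much on that array. Pcna, the replication clamp, changed by -0.20 on polysomes and by less than 0.01 in size in subpolysomes (adjusted p = 0.338 and 0.996, limma).

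Markers of another cell type and some hepatocyte markers moved with the shRNA. Of 5 stellate or fibroblast markers (Col1a1, Col1a2, Pdgfrb, Des and Acta2), 5 were lower on polysomes (median -3.10, all genes 10.7% lower). In subpolysomes 4 were lower (median -1.22, all genes 12.3% lower). Their summed signal ran from 110000 to 119000 in scramble subpolysomes, 40700 to 56100 in eIF6 shRNA subpolysomes, 148000 to 244000 on scramble polysomes and 17000 to 24600 on eIF6 shRNA polysomes. Col1a1, Col1a2, Pdgfrb and Acta2 were well above background on all 16 arrays, and Des was on 8. Of 4 bile duct, 2 endothelial and 3 leukocyte markers measured, 0 were called on polysomes, in subpolysomes or in translational efficiency. Of the 9 hepatocyte markers, 2 rose in both fractions (22.2%, beside 11.1% of all genes on polysomes and 11.8% in subpolysomes) and 0 fell. Ttr rose by 1.15 on polysomes and 1.33 in subpolysomes (adjusted p = 5.52e-07 and 2e-07, limma), and Afp by 1.26 and 1.19 (adjusted p = 2.58e-06 and 6.33e-06, limma). The summed hepatocyte signal overlapped between scramble and eIF6 shRNA, at 309000 to 336000 against 321000 to 349000 in subpolysomes and 339000 to 514000 against 374000 to 523000 on polysomes. The part of these markers in the histone result was not tested.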

How the data were processed

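Per the file headers, each array was scanned with Feature Extraction 10.7.3.1 (10.7.7.1 in the submitters' processing notes) against probes placed on mm9, and the deposited intensity used here is the background-subtracted and processed signal of each spot. The authors also deposited a table of log2 values per probe, which was used only as an alternative and correlated with the log2 intensity of the same arrays at 0.9936 to 0.9999. Outlier spots and control spots were left out, repeated spots of a probe were averaged, and log2 signals were quantile-normalized over the 16 arrays. Probes were kept where 2 or more arrays in any 1 group stood well above background (25260 of 39429), and probes of a gene were averaged (19365 genes). limma 3.58.1 in R 4.3.3 was fitted to the 4 group means, with Benjamini-Hochberg adjustment over all genes and a threshold of 0.05. Exact permutation tests compared 4 with 4 arrays. The fit was tested on simulated data with independent noise for each gene. These data held no effects shared by an array and no normalization step, so the test cannot speak to either. Precision is limited by the 4 arrays per group, and p-values measure the spread between them. Where no array of a group was well above background, a bound was computed against the weakest signals counted as above background.

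Deviations of same-numbered arrays correlated at -0.157 to 0.030 between the fractions, at -0.039 to 0.412 between scramble and eIF6 shRNA polysomes and at -0.103 to 0.060 between the subpolysomes. Not every pair was above 0.1 in any of these, so the number was not used as a block. Arrays of the same slide correlated at a median of 0.11, beside -0.04 for other pairs, so values within slides are given. The members and gene lists were chosen with earlier results of these data known. Genes were named by rule: every histone gene called in translational efficiency, the highest and lowest of each class in each comparison with scramble, called members of the fixed lists, and Slbp, Npat, Casp8ap2 and Pcna. Alternatives were normexp background, 3 other scalings, 3 other filters, the brightest probe, the authors' log2 table, slide and replicate blocks, a probe GC correction and leaving out replicates. Leaving out 1 scramble polysomal array and fitting probes singly were chosen after seeing the data.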

Additional observations from a re-analysis of the deposited data

Results flagged for a closer look

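In 9 histone genes the change with eIF6 shRNA differed between the fractions by the test of the difference itself (limma). The differences were 0.80 for Hist1h1c, 2.04 for Hist1h2ac, 2.20 for Hist1h2ae, 0.90 for Hist1h2be, 1.01 for Hist1h2bg, 0.95 for Hist2h2be, 2.02 for Hist3h2ba, 0.82 for Hist1h3g and 1.25 for Hist2h3c2. Hist1h2ac and Hist1h2ae each had a group in which no array was well above background. In all 9 the difference was above 0 on each of the 4 slides. Selection of these genes on the same arrays favoured this, so it adds no separate evidence. It also held for histone genes that were not called, such as Hist1h2ag and Hist1h4c.

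One array stood far from the other 3 of its group in 5 of 116 groups of 4 checked over the named genes and class medians, where chance gives about 1 in 20. The gap as a share of the group's range was 0.834 for Hist1h2ac in scramble subpolysomes (replicate 4, at 6.36), 0.838 for Hist1h2al on eIF6 shRNA polysomes (replicate 1, at 4.27) and 0.889 for Hist1h4i in scramble subpolysomes (replicate 2, at 10.57). It was 0.83 for the H1 median in eIF6 shRNA subpolysomes (replicate 4, at 0.16) and 0.91 for the median of all histone genes in scramble subpolysomes (replicate 2, at 0.39).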

How the results depend on the processing

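The subpolysomal fall of the histone median and its gain in translational efficiency kept their direction under all 17 alternatives, whereas counts of calls and the polysomal over subpolysomal values depended on the scaling. With normexp background (offset 50) the subpolysomal median was -0.53, translational efficiency was called higher in 14 genes, and the scramble polysomal over subpolysomal median was -0.37 with 7 called higher. With 75th percentile scaling 20 genes were called lower in subpolysomes, the polysomal over subpolysomal median was -1.06 in scramble (2 called higher) and -0.47 in eIF6 shRNA cells (24 lower, 4 higher). With spike-in scaling the polysomal median was -0.63 (1 lower, 0 higher) and the subpolysomal median -0.90 (5 lower), while that of all genes moved to -0.47 and -0.23. No gene (0) was then called in translational efficiency, Hist2h2be changed by -0.093 on polysomes, and the polysomal over subpolysomal median was 0.66 in scramble (2 lower, 13 higher) and 1.06 in eIF6 shRNA cells (0 lower). With quantile normalization per fraction these medians were 0.47 (4 lower, 29 higher) and 1.16 (1 lower, 39 higher). Scaling fractions apart shifts all genes by construction, and the cause of the other differences was not tested. The brightest probe of each gene gave 3 histones lower on polysomes, and removing a probe GC trend gave 8 higher in scramble polysomes over subpolysomes.

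Leaving out replicates, which also leaves fewer arrays, gave 2 to 14 genes called lower and 2 to 5 higher on polysomes, 14 to 38 lower in subpolysomes, and 1 to 13 higher in translational efficiency with a median of 0.30 to 0.72. In scramble cells 2 to 7 were called higher on polysomes over subpolysomes. Same-numbered arrays were not shown to pair, and the replicate block gave 33 lower in subpolysomes and 9 higher in translational efficiency. Other filters, the authors' log2 table and the slide block moved no count over the 47 genes by more than 1.5 times. Of 35 called changes of named genes, 28 lost their call and Hist2h2be both its call and its sign with spike-in scaling, and 3 lost their call under the replicate block. Hist1h1d, Hist1h2ac and Hist1h2ae had groups with 0 arrays well above background, so their sizes are bounds.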
